A study of Mus musculus with 12 samples.

Results

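Core spliceosome components are the proteins that build the machine which cuts introns out of precursor messenger RNA, and 55 protein-coding genes that encode them were followed here in human U2OS osteosarcoma cells. They were found by their full names among the 58735 genes of the deposited expression table, and each name matched a single gene. The 55 genes encode the Sm ring (SNRPB, SNRPD1, SNRPD2, SNRPD3, SNRPE, SNRPF and SNRPG), the LSm ring (LSM2 to LSM8), proteins of the U1, U2 and U4/U6.U5 small nuclear ribonucleoproteins (snRNPs), the branch point and 3' splice site factors SF1, U2AF1 and U2AF2, members of the Prp19 complex with late helicases, and SNRNP48 of the minor spliceosome.

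Splicing starts when the U1 snRNP pairs with the 5' splice site while SF1 and the U2AF dimer mark the branch point and the end of the intron. The U2 snRNP, which carries the SF3A and SF3B complexes, then replaces SF1 at the branch point, and the U4/U6.U5 tri-snRNP joins before helicases and the Prp19 complex rearrange the particle for catalysis. Sm proteins form a ring around U1, U2, U4 and U5 RNA, LSm proteins form a related ring around U6 RNA, and SRSF1, the protein that the siRNAs target, is an SR protein that binds exons and helps to recruit U1 and U2AF.

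The series held 12 RNA-seq libraries of U2OS cells in 4 groups of 3. The groups were cells labelled blank, cells given siRNA siSRSF1-2 and cells given siRNA siSRSF1-3, both against SRSF1. The remaining group had forced expression of the long noncoding RNA LINC01134 (OE-LINC01134). No library named for a non-targeting siRNA or an empty vector was analysed here. Delivery and the agent itself therefore cannot be told apart in any comparison with blank. Nothing in the labels says how LINC01134 was delivered or whether 1 clone was used. The labels place every library in the U2OS line but name the mouse as organism, whereas the table carries human gene identifiers, so the genes were read as human. The study, too, places its RNA-seq in U2OS, while its methods describe siRNA delivery in HOS cells, another osteosarcoma line. The labels name 3 replicates a group only by number, and the study speaks of 2 biological replicates in its supplementary methods and of 3 repeats elsewhere, so that p-values measure the spread between these libraries, which may be technical.

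Values are FPKM, fragments counted on a gene per kilobase of its length and scaled to a library size, so levels of different genes are compared per length. SRSF1 reached 35.9, 19.8 and 20.5 FPKM in the 3 blank libraries, 7.09, 7.46 and 7.41 in siSRSF1-2 and 3.33, 6.81 and 7.90 in siSRSF1-3, and was lower in all 6 siRNA libraries than in any blank library. The log2 fold change was -1.72 ± 0.23 (SE; limma, adjusted p = 0.00500) for siSRSF1-2 and -2.09 ± 0.38 (adjusted p = 0.0518) for siSRSF1-3, and the exact two-sided permutation test gave p = 0.1 for each, the smallest value that 3 against 3 libraries allow. LINC01134 rose from 0.791, 0.519 and 0.497 FPKM in blank to 891, 1279 and 878 in OE-LINC01134 (log2 fold change 10.50 ± 0.22, adjusted p = 1.18e-05). The libraries held 26237763 to 32954539 reads on genes. The mesenchymal markers VIM, SPARC, FN1 and COL1A1 were expressed in every library (COL1A2, at 0.0131 FPKM or less, was not), while CD3E was at 0 and EPCAM, an epithelial marker, at 0.918 to 2.43 FPKM. In 3 places the libraries did not sort by group. Blank replicates 2 and 3 were close to each other and replicate 1 stood apart. OE-LINC01134 replicate 2 correlated better with blank replicate 1 (r = 0.952 across genes) than with the OE-LINC01134 replicates 1 and 3 (r = 0.941 and 0.940). In the third place siSRSF1-3 replicates 1 and 2 stood apart from siSRSF1-3 replicate 3. VIM parted the libraries across groups. It was at 171 to 248 FPKM in all blank libraries, OE-LINC01134 replicate 2 and siSRSF1-3 replicates 1 and 2. In OE-LINC01134 replicates 1 and 3, siSRSF1-3 replicate 3 and all siSRSF1-2 libraries it was at 68.7 to 79.4 FPKM. COL1A1 and FN1 did not part the libraries in this way. Cytosolic ribosomal protein genes took 16.9% of reads in siSRSF1-3 replicate 1 and 12.3% in replicate 2, against 5.69% to 7.18% in the other 10 libraries. The part of these differences between libraries in the results was not tested.

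In blank cells the spliceosome genes were well expressed, with mean levels from 0.176 to 146 FPKM and a median of 20.3 FPKM. Of these, 53 of the 54 that passed the expression filter (mean of at least 0.5 FPKM over the 12 libraries) lay above the median of all genes that passed, 3.91 FPKM. The 5 highest members were small subunits. SF3B5, a small SF3B subunit, stood at 146 ± 22.1 FPKM (SD, n = 3), SNRPC, the U1 protein that steadies pairing with the 5' splice site, at 138 ± 15.3 FPKM, and SNRPD2, which joins the Sm ring as a dimer with SNRPD1, at 131 ± 9.70 FPKM. SNRPB, the Sm B protein, reached 127 ± 18.5 FPKM and SF3B6, the SF3B subunit next to the branch point, 83.1 ± 5.49 FPKM. The first 4 of these overlapped, with blank libraries between 113 and 171 FPKM, and SF3B6 lay below them. In these bulk libraries fewer cells that express a gene and less of its RNA per cell cannot be told apart.

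At the low end, U2AF1, the small U2AF subunit that reads the AG at the end of the intron, was listed at only 0.218, 0.155 and 0.154 FPKM in blank and at most 0.658 FPKM in any library, and it was not tested. The table also lists a near-identical copy, U2AF1L5, at 0.974, 0.791 and 4.63 FPKM in blank, so the counting may have split or dropped reads between both entries and the level of U2AF1 is uncertain. SNRNP48, a protein of the minor spliceosome, stood at 3.34 ± 0.875 FPKM, LSM6 at 4.13 ± 0.744, PRPF18, a factor of the second catalytic step, at 5.28 ± 1.13 and LSM8, the subunit that sets the nuclear LSm ring apart, at 8.14 ± 0.917 FPKM. Thus LSM8 and LSM6 stood well below LSM4 (43.7 ± 1.10 FPKM) and LSM2 (40.9 ± 9.28 FPKM), although their proteins sit in the same ring. For LSM8 against LSM2 this gap rests on the listed gene lengths, 6210 and 1077 bases. Their reads in blank were alike, 1233, 1455 and 1827 for LSM8 and 1539, 1065 and 1282 for LSM2. In the Sm ring SNRPF had the lowest blank mean (23.3 ± 5.18 FPKM), near SNRPD1 (24.4 ± 8.62 FPKM), and both ranges overlapped.

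**Figure D1:**
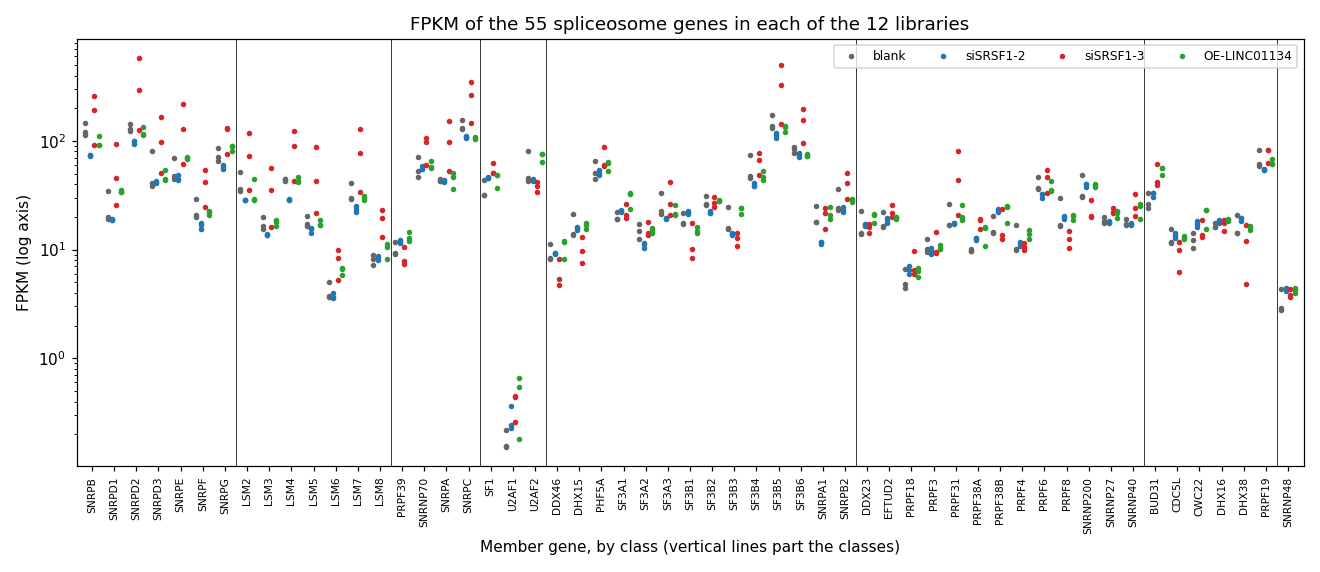
FPKM (log axis) of each of the 55 spliceosome genes, grouped by class along the horizontal axis, with 1 point for each of the 12 libraries, coloured by group. The Sm and LSm genes have 2 high red points each, the siSRSF1-3 replicates 1 and 2 (SNRPD2 at 576 and 292 FPKM), and U2AF1 lies below 1 FPKM in all libraries.

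Blank replicate 1 stood above both other blank libraries in 49 of the 54 tested members, against 47.3% of all 17538 genes tested, and below both in 4 (CWC22, LSM8, SF3B6 and SNRPA). The median difference between blank replicate 1 and the mean of replicates 2 and 3 was 0.44 on the log2 scale over the members and 0.04 over all genes tested. SNRPD3, an Sm protein, showed it most plainly, with 80.1, 38.6 and 41.2 FPKM in the blank libraries. PRPF8, the large U5 protein at the catalytic centre, had 30.1, 16.6 and 16.96 FPKM, and U2AF2, the large U2AF subunit that binds the polypyrimidine tract, 80.04, 45.3 and 43.1 FPKM. LSM4 (44.3, 44.4 and 42.4 FPKM) and PRPF38A (10.1, 9.74 and 9.73 FPKM) varied little among the same 3 libraries. The spread between replicates, as the median SD over the members on the log2 scale, was 0.25 in blank, 0.046 in siSRSF1-2, 0.40 in siSRSF1-3 and 0.12 in OE-LINC01134.

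The first comparison asks what the siRNA siSRSF1-2 did to the spliceosome genes. In siSRSF1-2 cells the Sm and LSm genes stood lower for the most part, 4 of them past the threshold, and PRPF38A and CWC22 rose. Of the 54 tested members 7 fell and 2 rose at an adjusted p under 0.05 (limma on log2 of FPKM + 0.1, Benjamini-Hochberg over 17538 genes), while 12.8% of all genes tested fell and 14.0% rose, so that called members made up 16.7% of the 54, below the 26.8% of all genes. No member passed the same threshold with a change over 2-fold, which 4.95% of all genes did. In 20 members every siSRSF1-2 library lay below every blank library and in 5 every one lay above, where over all genes these shares were 24.2% and 25.3%. The median log2 fold change was -0.12 over the members and 0.02 over all genes tested. When every library was rescaled to the same FPKM sum these medians became 0.01 and 0.15, and the split of called members turned from 2 higher and 7 lower to 9 higher and 4 lower, beside 21.1% and 8.93% of all genes. Scaled to each library's own reads it was 7 higher and 12 lower, beside 15.6% and 11.7%. Relative to the median of all genes the members' median was -0.14 under each of the 3 scalings. A scaling shifts all genes of a library alike, so it could hardly move this value.

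All 7 Sm genes were below the blank mean under each of the 3 scalings, with a median log2 fold change of -0.37. For SNRPD1, SNRPD3 and SNRPE this rested largely on blank replicate 1, whose part the scalings do not test. Of the 7 genes, 2 fell past the threshold. SNRPB measured 148, 120.1 and 113 FPKM in blank and 74.1, 73.3 and 74.5 in siSRSF1-2. The siSRSF1-2 libraries lay close together and well under the lowest blank library (log2 fold change -0.77 ± 0.11 (SE), adjusted p = 0.00538 by limma). SNRPD2 went from 142, 123 and 128 FPKM to 100.5, 93.2 and 100.5 (-0.42 ± 0.07, adjusted p = 0.0110), again with no overlap. A coding gene that overlaps SNRPD2, glutaminyl-peptide cyclotransferase like, fell too (-0.65, adjusted p = 0.00320). SNRPF (-0.46) and SNRPG (-0.37) did not overlap with blank either but missed the threshold, with adjusted p = 0.0806 and 0.0553, while SNRPD1, SNRPD3 and SNRPE overlapped with the blank libraries. SNRPD3 measured 80.1, 38.6 and 41.2 FPKM in blank and 43.2, 41.4 and 41.5 in siSRSF1-2, above blank replicates 2 and 3. SNRPE measured 69.1, 45.1 and 47.8 FPKM in blank and 43.6, 44.95 and 48.1 in siSRSF1-2. SNRPD1 stood at 34.3 FPKM in blank replicate 1. Its siSRSF1-2 libraries (18.86 to 19.05 FPKM) lay close to blank replicates 2 and 3.

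In the LSm ring, which binds the tail of U6 RNA and, with LSM1 in place of LSM8, also acts in mRNA decay in the cytoplasm, 6 of 7 genes were below blank, with a median of -0.33. LSM4 fell from 44.3, 44.4 and 42.4 FPKM to 28.8, 28.6 and 29.3, the smallest adjusted p of any member (log2 fold change -0.59 ± 0.05, adjusted p = 0.00172). LSM7 fell from 41.4, 29.4 and 30.2 FPKM to 25.2, 23.5 and 22.3 (-0.49 ± 0.14), but its adjusted p of 0.0497 was at the edge of the threshold. LSM2, LSM3 and LSM5 did not overlap with blank and were not called, with log2 fold changes of -0.49, -0.33 and -0.25, and LSM6 (-0.12) and LSM8 (0.04) overlapped. When scaled to the same sum, LSM6 turned to 0.01 above blank, and LSM8 stayed above it at 0.17. Of the 75 cytosolic ribosomal protein genes tested, 31 fell and 0 rose in siSRSF1-2, with a median of -0.18 (10 fell and 2 rose when scaled to the same sum), and their part in the Sm and LSm values was not tested.

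Among the U1 and U2 proteins, SNRPC, SNRPA1 and SF3B2 fell. SNRPA1, the U2 A' protein that pairs with SNRPB2 on U2 RNA, had the largest fall of any member, from 25.1, 17.99 and 17.9 FPKM in blank to 11.4, 11.8 and 11.7 in siSRSF1-2, and the groups did not overlap (log2 fold change -0.79 ± 0.14, adjusted p = 0.0116). Its 2 listed pseudogenes held reads equal to 9.36% of its own reads, 11.1% in blank and 9.17% in siSRSF1-2. SNRPC went from 156, 131 and 129 to 112, 107 and 109 FPKM (-0.34 ± 0.09, adjusted p = 0.0352) and SF3B2, an SF3B subunit that touches the intron near the branch point, from 31.4, 26.03 and 25.9 to 22.6, 21.7 and 21.6 FPKM (-0.33 ± 0.09, adjusted p = 0.0413). The other U1 proteins SNRPA (-0.02), SNRNP70 (0.01) and PRPF39 (0.23) overlapped with blank, and SF3B1, the large SF3B subunit that closes around the branch point, was at 21.3, 22.5 and 22.4 FPKM against 21.9, 17.2 and 17.4 in blank (0.24 ± 0.11, adjusted p = 0.151).

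PRPF38A, a factor that joins with the tri-snRNP and is needed for activation, rose from 10.1, 9.74 and 9.73 FPKM to 12.7, 12.8 and 12.3 (log2 fold change 0.35 ± 0.06, adjusted p = 0.00899), with every siSRSF1-2 library above every blank library. Here terminal uridylyl transferase 4, a coding gene that overlaps it, rose as well (0.55, adjusted p = 0.00517). CWC22, which brings the exon junction complex factor EIF4A3 to the spliceosome, rose from 10.3, 12.4 and 14.2 to 16.1, 18.2 and 17.4 FPKM (0.49 ± 0.13, adjusted p = 0.0334). PRPF38B, related to PRPF38A, was at 22.1, 23.3 and 23.5 FPKM against 20.4, 14.1 and 14.6 and missed the threshold (0.51 ± 0.15, adjusted p = 0.0502). SF1, the branch point binding protein, also stood above all blank libraries without a call (0.39, adjusted p = 0.0800), and its partner U2AF2 overlapped with blank (-0.31). The tri-snRNP helicase SNRNP200 (0.12), PRPF8 (-0.04) and EFTUD2, the U5 GTPase (0.03), overlapped with blank.

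The other U2 subunits stood mostly lower as well. SF3A2, a subunit of the SF3A complex, came nearest to a call (log2 fold change -0.41 ± 0.12, adjusted p = 0.0514), ahead of SF3B5 (-0.36 ± 0.11, adjusted p = 0.0637). A coding gene that overlaps SF3A2, pleckstrin homology domain containing J1, fell past the threshold (-0.37, adjusted p = 0.0356). SF3A3 (-0.36), SF3B3 (-0.39), SF3B4 (-0.46) and SF3B6 (-0.16) also lay below every blank library, SF3A1 (0.18) lay above, and SNRPB2 (-0.23), PHF5A (-0.04), DDX46 (0.01) and DHX15 (-0.02) overlapped with blank. In all, 11 of the 14 U2 genes were below blank, or 9 when scaled to the same sum. Of the tri-snRNP proteins, PRPF6, a scaffold between U5 and U4/U6, lay below every blank library (-0.33, adjusted p = 0.0850), and in the Prp19 complex PRPF19, the ubiquitin ligase that names it, did too (-0.29, adjusted p = 0.159). The remaining members of these classes and SNRNP48 had log2 fold changes from -0.15 (PRPF31) to 0.38 (SNRNP48) and overlapped with blank.

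The calls in siSRSF1-2 turned on single libraries. Without blank replicate 1, 21 members were called higher and 19 lower, with 27.4% and 24.7% of all genes tested called the same ways, and the median over the members moved to -0.01. Leaving out siSRSF1-2 replicates 1, 2 or 3 left 0, 0 and 1 called higher and 3, 2 and 2 called lower, and without blank replicate 2 there were 1 and 4. With near-identical libraries averaged to 1 (blank replicates 2 and 3, and all 3 siSRSF1-2 libraries) no member and no other gene was called, since 1 library was left for siSRSF1-2.

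**Figure D2:**
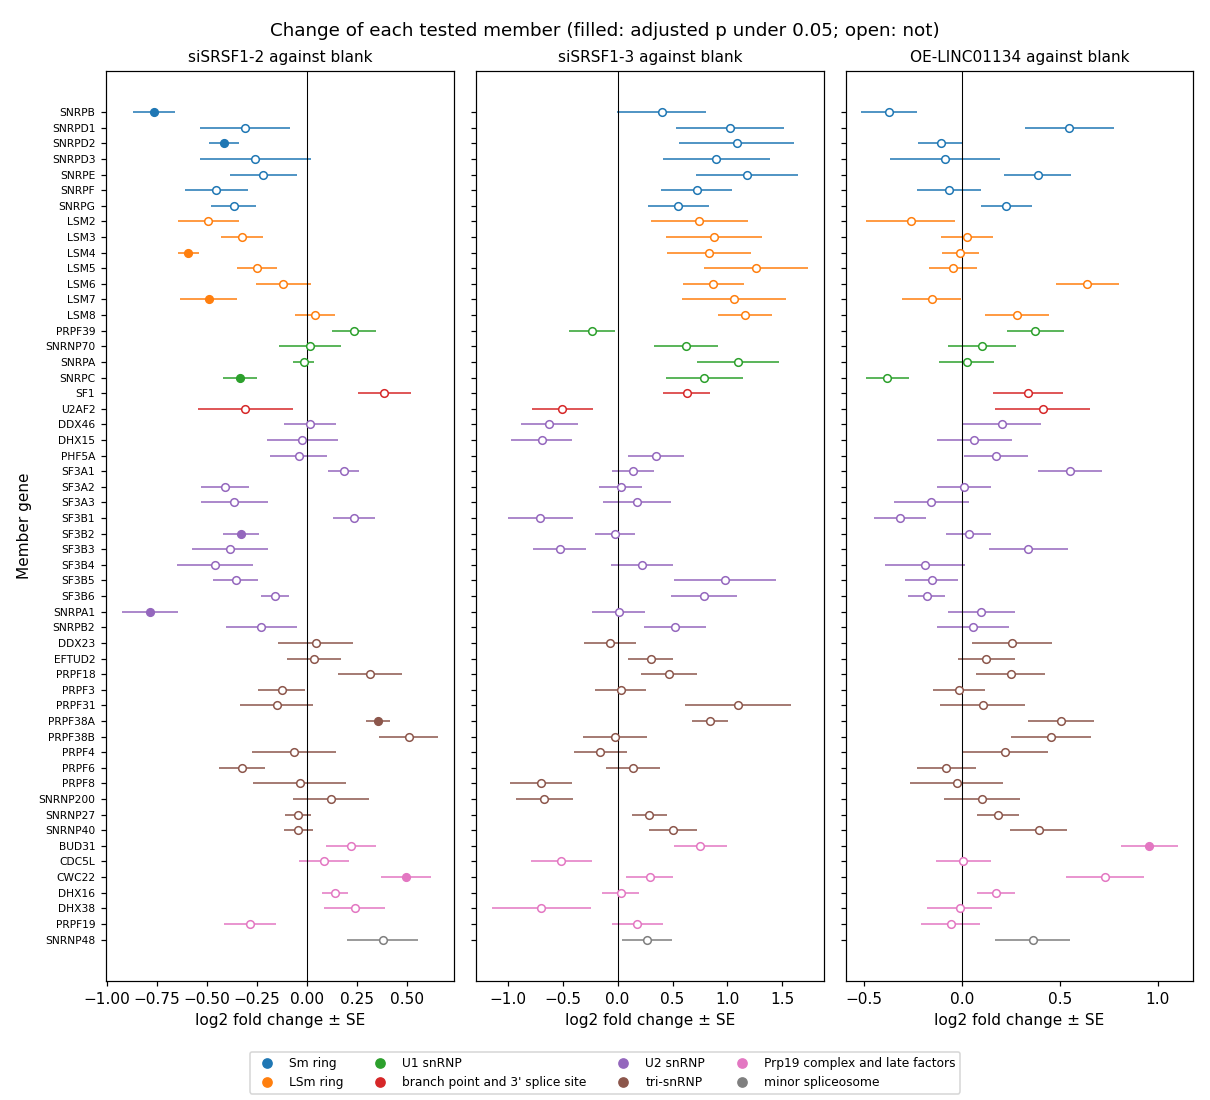
Log2 fold change of each of the 54 tested members against blank, with its SE (bars), for siSRSF1-2, siSRSF1-3 and OE-LINC01134; filled points passed an adjusted p under 0.05 (limma) and colours mark the classes. Filled points number 9 in siSRSF1-2, 0 in siSRSF1-3 and 1 in OE-LINC01134; the bars are widest in siSRSF1-3, where rescaling to the same FPKM sum moves the members' median from 0.33 to -0.12.

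The second siRNA, siSRSF1-3, gave another picture, with high Sm and LSm values that rested on its replicates 1 and 2. No member was called at an adjusted p under 0.05, where 0.342% of all genes rose and 0.935% fell and 1.26% passed with a change over 2-fold. Before adjustment 9 members were higher and 5 lower with p under 0.05, beside 15.2% and 13.6% of all genes, and limma's voom on the recovered reads called 2 higher and 0 lower, beside 1.24% and 2.55%. In 10 members all siSRSF1-3 libraries lay above all blank libraries and in 6 all lay below, against 19.2% and 18.0% of all genes. The median log2 fold change was 0.33 over the members and -0.01 over all genes. Scaled to the same FPKM sum these were -0.12 and -0.43, and scaled to own reads 0.07 and -0.26. The sign for the members thus depends on the scaling. Their position relative to all genes was 0.34, 0.31 and 0.32. Each scaling shifts all genes of a library alike, so this position could hardly move and its steadiness is no support.

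In siSRSF1-3 the medians were 0.90 for the Sm genes and 0.88 for the LSm genes (0.45 and 0.43 when scaled to the same sum, where SNRPB turned to below blank), and none passed the threshold. SNRPD2 was at 576, 292 and 127 FPKM in siSRSF1-3 against 142, 123 and 128 in blank (log2 fold change 1.09 ± 0.52, adjusted p = 0.207). SNRPE, the Sm protein E, was at 221, 128 and 61.2 FPKM against 69.1, 45.1 and 47.8 (1.18 ± 0.47, adjusted p = 0.157) and LSM5 at 87.7, 42.9 and 21.5 FPKM against 20.6, 16.4 and 17.4 (1.26 ± 0.47, adjusted p = 0.145). In each of these genes replicates 1 and 2 stood above every blank library and replicate 3 was near the blank range. As medians over the classes, siSRSF1-3 replicates 1, 2 and 3 stood 1.73, 0.96 and 0.04 above the blank mean for the Sm genes and 1.56, 1.04 and 0.02 for the LSm genes, on the log2 scale. The cytosolic ribosomal protein genes, a family of short and abundant mRNAs, stood likewise at 1.95, 1.21 and 0.16, and their part in this result was not tested.

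Outside the rings, the short genes SNRPA, the U1 A protein (152, 98.7 and 53.3 FPKM against 42.4, 44.8 and 43.1 in blank), SNRPC, SF3B5, SF3B6 and PRPF31, the protein that bridges U4 and U6 with U5 (80.4, 43.8 and 20.9 against 26.4, 16.7 and 16.97 FPKM), followed the same order of libraries. Coding genes that overlap 2 of them were higher as well: chromosome 19 open reading frame 54, which overlaps SNRPA, rose (1.28, adjusted p = 0.0456), and TCF3 fusion partner, which overlaps PRPF31, stood at 1.24 (adjusted p = 0.128). In OE-LINC01134 the gene that overlaps SNRPA had a mean of 13.3 FPKM against 6.23 in blank, while SNRPA had 44.6 against 43.4 FPKM. The part of shared reads in the values of SNRPA and PRPF31 was not tested. Not all short members followed this order. PHF5A (58.6, 87.7 and 59.4 FPKM), BUD31 (42.3, 61.5 and 39.6) and SF3A2 (14.1, 17.8 and 13.7) were highest in siSRSF1-3 replicate 2. The 3 members with the smallest adjusted p on the higher side were PRPF38A, LSM8 and LSM6. PRPF38A was at 19.1, 18.8 and 15.6 FPKM (log2 fold change 0.84 ± 0.16, adjusted p = 0.0550). All 3 of its libraries were above blank, replicate 3 included. Terminal uridylyl transferase 4, which overlaps PRPF38A, stood lower than in blank here (-0.45, adjusted p = 0.352). LSM8 was at 23.4, 19.6 and 13.1 FPKM (1.16 ± 0.25, adjusted p = 0.0634) and LSM6 at 9.84, 8.39 and 5.23 FPKM (0.87 ± 0.28, adjusted p = 0.113), with no overlap with blank either.

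Some large scaffold proteins and helicases were lower, none past the threshold. SNRNP200, the helicase that unwinds U4 from U6, was at 19.98, 20.3 and 28.6 FPKM against 49.1, 30.97 and 30.6 in blank (log2 fold change -0.67 ± 0.26, adjusted p = 0.155). DHX15, the helicase that takes spent spliceosomes apart, was at 7.51, 9.66 and 13.1 against 21.3, 14.01 and 13.5 FPKM (-0.69 ± 0.28, adjusted p = 0.160) and PRPF8 at 12.6, 10.5 and 14.9 against 30.1, 16.6 and 16.96 FPKM (-0.70 ± 0.28, adjusted p = 0.161). In all 3 the siSRSF1-3 libraries lay below every blank library, with replicate 3 nearest to blank. SF3B1 (8.41, 10.1 and 17.7 FPKM) and DHX38, a helicase of the second catalytic step (4.82, 11.97 and 16.9 FPKM against 20.7, 14.4 and 14.2 in blank), were low in replicates 1 and 2 only, and their replicate 3 lay within the blank range.

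Besides SNRNP200, DHX15 and PRPF8, the members with all siSRSF1-3 libraries below all blank libraries were U2AF2 (-0.50), SF3B3 (-0.53) and DDX46, a helicase of early U2 binding (-0.62). Besides PRPF38A, LSM6 and LSM8, those with all libraries above blank were LSM5 (1.26), SNRPA (1.10), SF1 (0.63), SF3B6 (0.78), BUD31 (0.75), SNRNP27 (0.29) and SNRNP40 (0.50). In the U2, tri-snRNP and Prp19 classes the medians were 0.08, 0.14 and 0.10, and they turned to -0.36, -0.31 and -0.34 when scaled to the same sum and to -0.17, -0.12 and -0.16 when scaled to own reads.

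Which library was left out decided the siSRSF1-3 result. Without siSRSF1-3 replicate 3, 23 members were called higher and 4 lower, with 19.1% and 16.8% of all genes called the same ways. Without replicates 1 and 2, the remaining library, assumed to vary like the blank group, gave no call among the members or among all genes, and the members' median was 0.05. In that library PRPF38A still stood 0.66 and LSM8 0.69 above the blank mean on the log2 scale, and PRPF8 0.45 below it (14.9 FPKM), while LSM6 was at 0.35. A single fit over all 4 groups, which shares 1 spread, called 10 members higher and 4 lower, beside 14.9% and 12.9% of all genes.

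**Figure D3:**
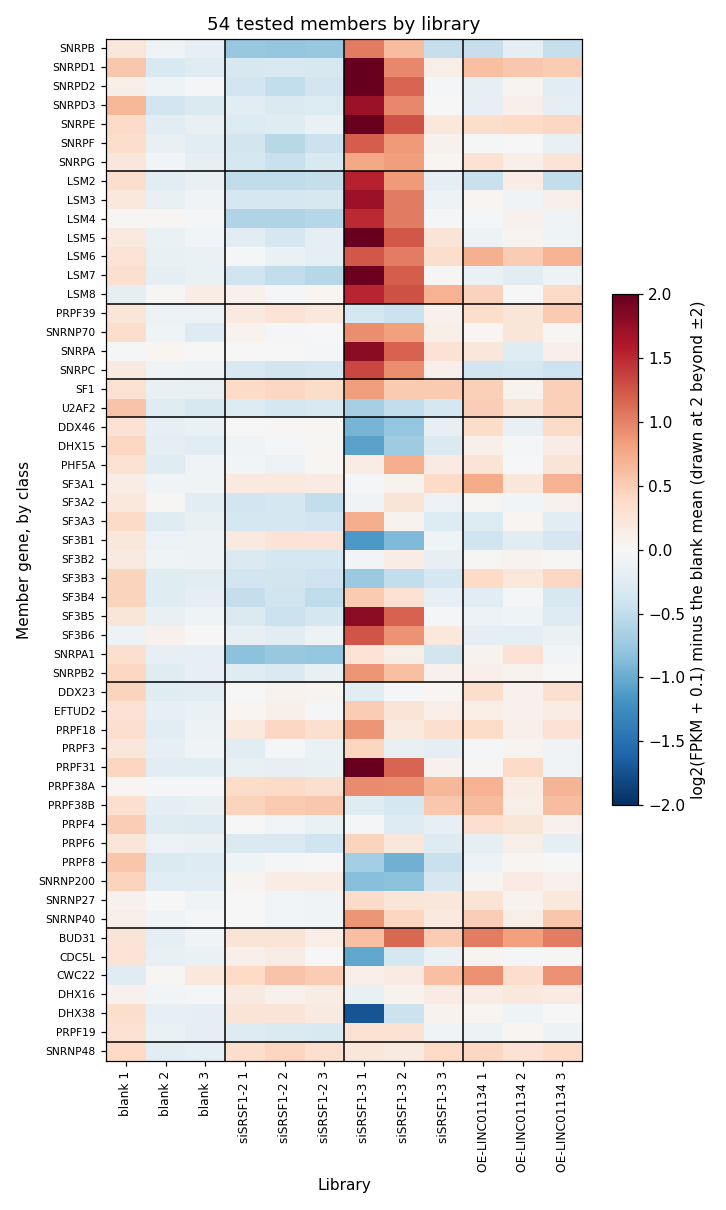
Heat map of log2(FPKM + 0.1) minus the blank mean for the 54 tested members (rows, parted by class) in the 12 libraries (columns); red is above the blank mean, blue below, and values beyond 2 in either direction are drawn at 2. siSRSF1-3 replicates 1 and 2 are red over the Sm and LSm rows and blue over rows such as SNRNP200, SF3B1 and DHX15, and blank replicate 1 lies above its group mean in 50 of 54 rows.

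**Figure D4:**
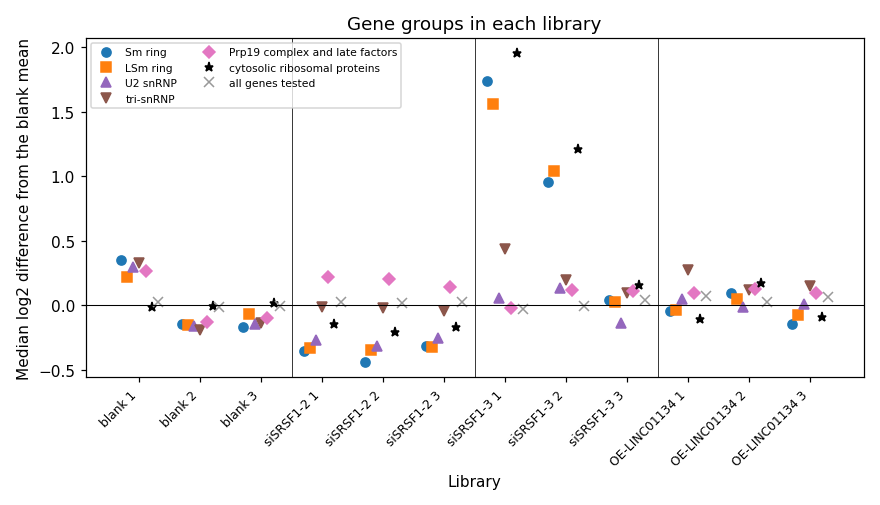
Median log2 difference from the blank mean in each of the 12 libraries for 5 spliceosome classes, for the cytosolic ribosomal protein genes (stars) and for all genes tested (crosses). In siSRSF1-3 replicates 1 and 2 the Sm genes (1.73 and 0.96), LSm genes (1.56 and 1.04) and ribosomal protein genes (1.95 and 1.21) stand together, and in siSRSF1-2 the Sm, LSm and U2 medians lie below 0.

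The siRNAs were then compared with each other, since both target SRSF1; SRSF1 itself did not differ between them beyond the spread (log2 fold change -0.37 ± 0.32 for siSRSF1-3 against siSRSF1-2, adjusted p = 0.387). No member was called, where 0.0342% of all genes were higher and 0.0513% lower in siSRSF1-3 and 0.0855% passed with a change over 2-fold. Before adjustment 30 members were higher and 7 lower with p under 0.05, beside 21.9% and 20.2% of all genes, and voom called none. In 35 members all siSRSF1-3 libraries lay above all siSRSF1-2 libraries, and in 9 all lay below, with 27.0% and 27.6% for all genes. The median over the members was 0.48, with -0.02 over all genes, and scaled to the same sum these were -0.10 and -0.57. All 7 Sm genes (median 1.18) and all 7 LSm genes (median 1.24) were among the 35, and these medians were 0.60 and 0.66 when scaled to the same sum and 0.87 and 0.93 when scaled to own reads. LSM8 (8.65, 7.97 and 8.36 FPKM in siSRSF1-2), SNRPA1 (24.2, 21.8 and 15.6 FPKM in siSRSF1-3 against 11.4, 11.8 and 11.7) and LSM6 had the smallest adjusted p on the higher side (0.0725, 0.0764 and 0.0792, with log2 fold changes of 1.12 ± 0.22, 0.79 ± 0.18 and 0.99 ± 0.24). On the lower side these were SNRNP200 (-0.78 ± 0.17, adjusted p = 0.0749), PRPF8 (-0.66 ± 0.15, adjusted p = 0.0767) and SF3B1 (-0.94 ± 0.28, adjusted p = 0.0838).

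The difference between the siRNAs was smaller in siSRSF1-3 replicate 3, the library that resembled siSRSF1-2 most. Replicate 3 stood above the siSRSF1-2 mean in 43 of 54 members. The median difference was 0.22 on the log2 scale over the members and 0.01 over all genes. A fit of this lone library has to assume that it varies like the siSRSF1-2 group, whose 3 libraries were close to each other. The median SD over the members was 0.046 in siSRSF1-2 and 0.40 in siSRSF1-3, so calls from that fit are not given. Without replicate 3, 33 members were called higher and 11 lower, beside 31.2% and 30.0% of all genes.

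Forced expression of LINC01134 was compared with blank to see whether the spliceosome genes moved with this RNA, and BUD31 was the only member called. BUD31, a small protein of the activated spliceosome, rose from 33.4, 24.4 and 26.3 FPKM in blank to 56.7, 49.1 and 56.5. Each OE-LINC01134 library was above each blank library (log2 fold change 0.96 ± 0.14, adjusted p = 0.0433 by limma). PDGFA associated protein 1, a coding gene that overlaps BUD31, stood at 177 FPKM against 106 (0.79 ± 0.21, adjusted p = 0.0890), so shared reads cannot be told apart from a change in BUD31. BUD31 was the 1 of 54 members called higher, where 0.450% of all genes were, and 0 members were called lower, where 0.730% were; 0.850% of all genes passed with a change over 2-fold, and no member did. Before adjustment 8 members were higher and 3 lower with p under 0.05, beside 14.04% and 12.3% of all genes, and voom called 1 higher and 0 lower, beside 1.36% and 1.85%. All OE-LINC01134 libraries lay above all blank libraries in 7 members and below in 4, against 16.8% and 13.8% of all genes. The median log2 fold change was 0.10 over the members and 0.05 over all genes (0.19 and 0.14 when scaled to the same sum).

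LSM6 came next on the higher side, at 6.78, 5.83 and 6.68 FPKM against 4.98, 3.66 and 3.74 in blank (log2 fold change 0.64 ± 0.16, adjusted p = 0.0837). CWC22 was at 23.1, 15.6 and 23.2 against 10.3, 12.4 and 14.2 FPKM (0.73 ± 0.20, adjusted p = 0.0933). Its OE-LINC01134 replicate 2 was the lowest of its group and the nearest to blank, as were SF3A1 (33.4, 23.4 and 32.4 FPKM) and PRPF38A (15.99, 10.9 and 15.9 FPKM) in that library. On the lower side, SNRPC was at 106, 108 and 104 against 156, 131 and 129 FPKM (-0.38 ± 0.11, adjusted p = 0.102), SNRPB at 91.6, 110.2 and 91.6 against 148, 120.1 and 113 FPKM (-0.37 ± 0.14, adjusted p = 0.163) and SF3B1 at 14.2, 16.2 and 14.8 against 21.9, 17.2 and 17.4 FPKM (-0.32 ± 0.13, adjusted p = 0.188). All 3 were below every blank library and none passed the threshold. By class, the 13 tri-snRNP proteins had a median of 0.18, with 10 above blank, SF1 (0.34) and U2AF2 (0.41) were both above the blank mean but overlapped with blank, and the Sm genes had a median of -0.07 that turned to 0.02 when scaled to the same sum.

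OE-LINC01134 replicate 2 and blank replicate 1, which resembled each other, gave the members differences in another direction than the other 4 libraries. OE-LINC01134 replicate 2 minus blank replicate 1 was above 0 in 10 of 54 members, with a median of -0.22 on the log2 scale (-0.0037 over all genes), whereas OE-LINC01134 replicates 1 and 3 minus blank replicates 2 and 3 were above 0 in 43 of 54, with a median of 0.21 (0.08 over all genes). Only 19 of 54 members had the same sign in both differences. Without blank replicate 1, 11 members were called higher and 1 lower, beside 7.61% and 6.31% of all genes, and the median over the members was 0.26. Without OE-LINC01134 replicate 2, 6 members were called higher and 0 lower, beside 25.5% of all genes called in either direction, and BUD31 was no longer called without blank replicate 2 or 3 or without OE-LINC01134 replicate 1 or 3.

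The comparisons with blank share the blank libraries, and blank replicate 1 was above the other blank libraries for most members, so the values of a member in different comparisons are not independent. SNRPB had log2 fold changes of -0.77, 0.40 and -0.37 against blank in siSRSF1-2, siSRSF1-3 and OE-LINC01134, and PRPF38A of 0.35, 0.84 and 0.51. CWC22 had 0.49, 0.29 and 0.73, and in siSRSF1-3 it was at 13.2, 13.6 and 18.6 FPKM. Of these libraries only replicate 3 lay above the highest blank library (14.2 FPKM). PRPF38A was above every blank library in all 9 treated libraries, the lowest being 10.9 FPKM in OE-LINC01134 replicate 2 against 10.1 FPKM in blank replicate 1.

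Gene length went with the direction of change among the members. For the length that the table gives for each gene, from 693 bases for SF3B5 to 12419 for SF3B3, Spearman's rho with the log2 fold change across the 54 tested members was 0.48 in siSRSF1-2 and -0.59 in siSRSF1-3 (Pearson's r 0.42 and -0.61), against 0.06 and -0.15 (Spearman's rho) across all genes tested. In OE-LINC01134 against blank rho was 0.33 over the members and 0.0088 over all genes, of the same sign as in siSRSF1-2, and between the siRNAs it was -0.67 and -0.19. Genes are not independent replicates, and all points of a comparison share the same 6 libraries, so these are descriptions. In siSRSF1-3 the 27 shorter members (under the median of 3848 bases) reached a median of 0.72, 26 of them above blank, and the 27 longer ones 0.03, with 14 above blank. In siSRSF1-2 the medians were -0.33 (3 of 27 above blank) and 0.03 (16 of 27). By library, rho was -0.63, -0.64 and -0.11 in siSRSF1-3 replicates 1, 2 and 3 and 0.45, 0.51 and 0.44 in siSRSF1-2.

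**Figure D5:**
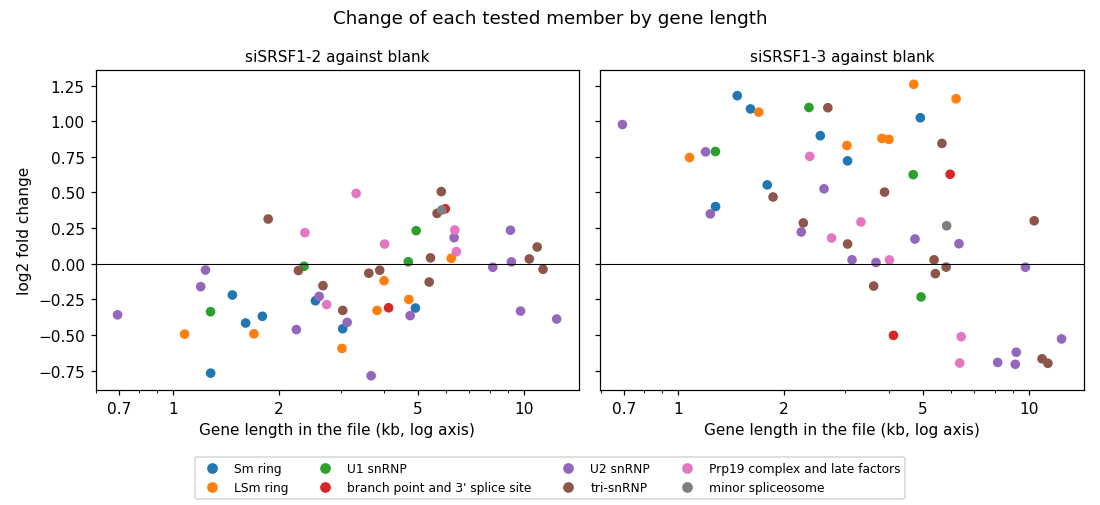
Log2 fold change of each tested member (points, coloured by class) against its gene length (log axis, kb) for siSRSF1-2 against blank (left) and siSRSF1-3 against blank (right). Shorter members lie lower on the left (median -0.33 for the 27 shorter members) and higher on the right (0.72).

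The wider spliceosome was read from 70 further genes, 56 splicing factors and 14 genes of snRNP assembly. In siSRSF1-2, 4 rose and 6 fell, a share (14.3%) close to that of the members (16.7%) and below that of all genes (26.8%). HTATSF1, a U2-associated factor, had the largest fall (log2 fold change -0.96 ± 0.08, adjusted p = 0.00158), and PPIL1, BCAS2 and SNW1 of the activated spliceosome fell too (-0.48, -0.48 and -0.29). GEMIN6 and STRAP belong to the SMN complex that loads Sm rings onto small nuclear RNA. They fell by 0.46 and 0.42 on the log2 scale (adjusted p = 0.0404 and 0.0356). These were the 2 called of the 14 assembly genes (14.3%), where 12.8% of all genes fell. SRRM2, a scaffold of nuclear speckles, rose (0.62 ± 0.11, adjusted p = 0.0125), with DHX35 (0.53), LUC7L2 (0.36), a U1-associated protein, and PLRG1 (0.28) of the Prp19 complex. None of the 70 was called in siSRSF1-3 or OE-LINC01134, where 12 and 16 of them had p under 0.05 before adjustment, beside 28.8% and 26.3% of all genes.

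Some member levels may hold reads of other genes, because the strand setting of the counting is not given in the sources used here. Of the 55 members, 19 overlapped another gene with a mean of at least 0.5 FPKM, 16 of them a coding gene, among them SNRPD2, LSM7, PRPF38A and BUD31. Named pseudogenes were listed for 12 members, and SNRPA1 was the only member whose pseudogenes held over 5% of its own reads.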

How the data were processed

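RNA-seq libraries of U2OS cells were read from the deposited table, which gives FPKM per gene as the authors made it from mapped reads; the labels name the builds GRCm38 and mm10 although the gene identifiers are human, and the aligner, counter and strand setting are not given in the sources used here. The labels name a SMARTer kit and the study's supplementary methods a NEBNext kit. FPKM times gene length ran in equal steps within a library, from which 100% of values came out as whole reads within 0.01 read, at 26237763 to 32954539 reads per library. The library sizes that these steps imply were 0.712 and 0.888 of the library's own reads on genes in siSRSF1-3 replicates 1 and 2 and 0.990 to 1.09 of them in the others, in proportion to median-of-ratios size factors computed from the recovered reads, so 2 other scalings were run (each library to the same FPKM sum, or to its own reads). Groups of 3 libraries were compared with limma 3.58.1 in R 4.3.3 on log2(FPKM + 0.1), with a mean-variance trend, over the 17538 genes with a mean of at least 0.5 FPKM, each pair of groups fitted alone; fold changes on this scale understate changes of low genes. Calls took a two-sided Benjamini-Hochberg adjusted p under 0.05. Exact permutation tests used scipy 1.17.1. The fit was tried on simulated libraries that were independent of each other, with changes larger than most members showed. They lacked the near-identical and outlying libraries of these groups, so the trial says nothing on calls under that structure. The 55 members and all lists were chosen with earlier results of these data known. Full statistics were given for the 5 called members with the largest change in each direction and no overlap, or, where fewer than 3 were called, for the 3 with the smallest adjusted p, and levels for the 5 highest and 5 lowest in blank; other members were named by class. Alternatives changed the pseudocount, filter, scaling, model, libraries and blocking.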

Additional observations from a re-analysis of the deposited data

Results flagged for a closer look

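For 2 members the siRNAs went opposite ways: every siSRSF1-2 library lay below, and every siSRSF1-3 library above, all blank libraries, a pattern that 1.78% of all genes tested showed (the reverse, 1.60%, was seen in 0 members). LSM5, a subunit of the LSm ring, differed by 1.51 on the log2 scale between siSRSF1-3 and siSRSF1-2, and the direct test missed the threshold (limma adjusted p = 0.0881). SF3B6, the SF3B subunit near the branch point, differed by 0.95, and that test missed it as well (adjusted p = 0.0842). In siSRSF1-3 replicate 3 LSM5 was at 21.5 FPKM, against 20.6 in the highest blank library, and SF3B6 at 95.6 FPKM, against 88.4. On the lower side SF3B6 was separated by little: its highest siSRSF1-2 library was at 77.31 FPKM and its lowest blank library at 77.42 FPKM.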

How the results depend on the processing

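For siSRSF1-2 against blank (2 members higher, 7 lower, median -0.12), the counts higher and lower were 1 and 4 with no filter, 9 and 4 (median 0.0064) when rescaled to the same FPKM sum, 7 and 12 (median -0.079) when scaled to own reads, 0 and 1 in a single fit over 4 groups, 4 and 16 before adjustment, 0 and 0 with a change over 2-fold, and 0 and 0 (median -0.19) with near-identical libraries averaged; 4 were lower with no mean-variance trend. The median was -0.11 with a pseudocount of 1 and -0.10 with the gene length trend removed. Leaving out single libraries gave 0 to 21 higher, 2 to 19 lower and medians of -0.19 to -0.0093. For siSRSF1-3 against blank (0 and 0, median 0.33), the median was -0.12 at the same sum, 0.066 on own reads and 0.055 without replicates 1 and 2; the single fit called 10 and 4, the unadjusted p 9 and 5, and voom 2 higher. Leaving out single libraries gave 0 to 23 higher, 0 to 4 lower and medians of 0.27 to 0.48. For OE-LINC01134 against blank (1 and 0, median 0.10), BUD31's call was lost (0 higher) with no filter, with no trend, with a change over 2-fold and with near-identical libraries averaged (median 0.026); the single fit called 2 higher, the unadjusted p 8 and 3, and a block that paired blank replicate 1 with OE-LINC01134 replicate 2 called 3 and 4. Medians were 0.19 at the same sum, 0.10 on own reads and 0.12 with the length trend removed, and leaving out single libraries gave 0 to 11 higher, 0 to 1 lower and medians of 0.00049 to 0.26. For siSRSF1-3 against siSRSF1-2 (0 and 0, median 0.48), the single fit called 28 and 7, the unadjusted p 30 and 7, and the fit without siSRSF1-3 replicates 1 and 2 called 29 and 4 (median 0.22); the median was -0.10 at the same sum and 0.17 on own reads. Leaving out single libraries gave 0 to 33 higher, 0 to 11 lower and medians of 0.41 to 0.63. The causes were not tested.

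Same-numbered libraries did not deviate together (correlations of -0.08 to 0.04), so numbers do not pair them; with the replicate block the counts were 1 and 4 for siSRSF1-2, 0 higher for OE-LINC01134, and 0 and 0 for the siSRSF1-3 comparisons. Averaging, leaving out siSRSF1-3 replicates 1 and 2, and the block of library pairs were chosen after seeing the data. No pair of libraries differed by less than counting noise (chi-square per degree of freedom of at least 2.13), so that planned averaging was not run. For single named genes, 421 alternative values kept their side of the threshold and 0 changed sign. Those sorted as coming under it (65) or losing it (52) include the values with the gene length trend removed. These have no p-value and could not cross it, so both counts are too high.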
